A study of Mus musculus with 12 samples.

Results

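The brush border digestive enzymes are the hydrolases anchored in the apical membrane of intestinal enterocytes, and 10 of their genes were followed here: Sis, Lct, Treh, Mgam, Alpi, Anpep, Enpep, Dpp4, Mep1a and Mep1b. The members were found by symbol, alias or gene number in the platform annotation. This gave 9 of the 10 genes, all 9 of which were above background on at least 3 arrays, among 12192 genes that were. Mgam, the maltase-glucoamylase gene, matched no probe and was not analysed here.

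The microvilli of enterocytes carry disaccharidases, which release simple sugars, peptidases, which trim peptides to amino acids and short peptides, and an alkaline phosphatase. These enzymes are made as enterocytes leave the crypt and mature on the villus, and most are known to be more abundant in small intestine than in colon. The small-intestinal tissue used here had its villi sheared off, and the villus is where these genes are known to be highest.

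RNA was read on 12 Illumina BeadChip arrays in 4 groups of 3. The mice were C57BL/6, aged 3 months (12 weeks in the growth protocol), and carried intact Apc in every group. The mutant groups were Cftr fl/fl with Cre driven by the Villin promoter, which deletes the chloride and bicarbonate channel gene Cftr in gut epithelium. The genotype field of the wild type reads Cftr+/+-Villin-Cre, while the growth protocol names no Cre for it, so whether the controls carried Cre is not settled. The series design text calls the mutants deficient in Apc as well, whereas the genotype field gives intact Apc. Colon samples were distal colon epithelium, although a protocol field speaks of whole tissue, and small-intestinal samples were mid-duodenal wall without villi, holding stroma and muscle beside epithelium. Nothing ties an array to a named mouse, so the p-values cover only the variation among arrays of a group.

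The values are log2 signals whose floor lies near 7.7, and a probe was called dim at or below 7.78. The main Cftr probe read 7.95 to 8.13 in colon wild type, 7.94 to 8.21 in colon mutant, 8.20 to 8.28 in small-intestinal wild type and 8.11 to 8.30 in small-intestinal mutant, so the genotypes overlapped. The sources do not say whether this probe reads the deleted exons, so it checks nothing. Tissue markers separated as labelled: the colonocyte gene Car1 was at least 109-fold higher in wild-type colon, and the summed signal of 11 enterocyte markers outside the members was 11.6 to 12.1 (log2) on colon arrays and 16.3 to 16.6 on small-intestinal ones. Epcam, a defining epithelial gene, had a probe near the dim limit on all arrays (7.69 to 7.84), while Krt20 read 12.7 to 13.6. Of the 7 epithelial markers, 1 (Krt20) was higher in small intestine of wild type and 4 were lower (limma adjusted p under 0.05). Krt18 and Krt19 were among the lower ones, with log2 differences of -1.01 and -0.93, and 2 markers did not pass. Among all features 17.9% were higher and 23.4% lower. Small-intestinal wild type 1 and 3 were the closest pair of arrays within a group, with an SD of differences of 0.104 against up to 0.224 for the others. Colon mutant 2 stood apart in markers of other cells: its Paneth cell genes summed to 14.8 (log2) against 11.6 to 13.9 on the other colon arrays, and its erythrocyte genes to 14.2 against at most 12.7. Of the Paneth cell genes, Lyz1 read 11.53 on colon mutant 2 against at most 9.05 on the other colon arrays. Ang4 (11.86) and Itln1 (9.29) did not stand apart there, and Ang4 reached 13.74 on another colon array.

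The first question was how far the enzymes separate duodenum from colon, as a check of each member against its known place. In wild-type mice 8 of the 9 measured members were higher in small intestine and 1, Mep1a, was lower, in each case with all 3 arrays of a tissue on its own side. The largest difference was that of Anpep, 62.3-fold. Over all 15996 features tested, 41.2% differed, 17.9% were higher and 23.4% lower (limma, Benjamini-Hochberg adjusted p under 0.05). Of all features 23.0% and 30.9% had groups that did not overlap in these directions. The median difference of the members was 2.88 on the log2 scale, against -0.02 for all features. These counts describe the members and are no test of them, because a gene that is dim in colon was kept only through small intestine and had to differ. That holds for Enpep, dim on all colon arrays, and nearly for Lct, above the limit on 1 of 6. In whole tissue, fewer cells of a type and less RNA per cell cannot be told apart. The duodenal samples also held stroma: 7 smooth muscle genes summed to 14.2 to 14.4 (log2) there and 10.7 to 10.9 in colon, and 6 fibroblast genes to 11.7 to 12.0 and 10.4 to 11.4. Their part in the members' differences was not tested.

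**Figure D1:**
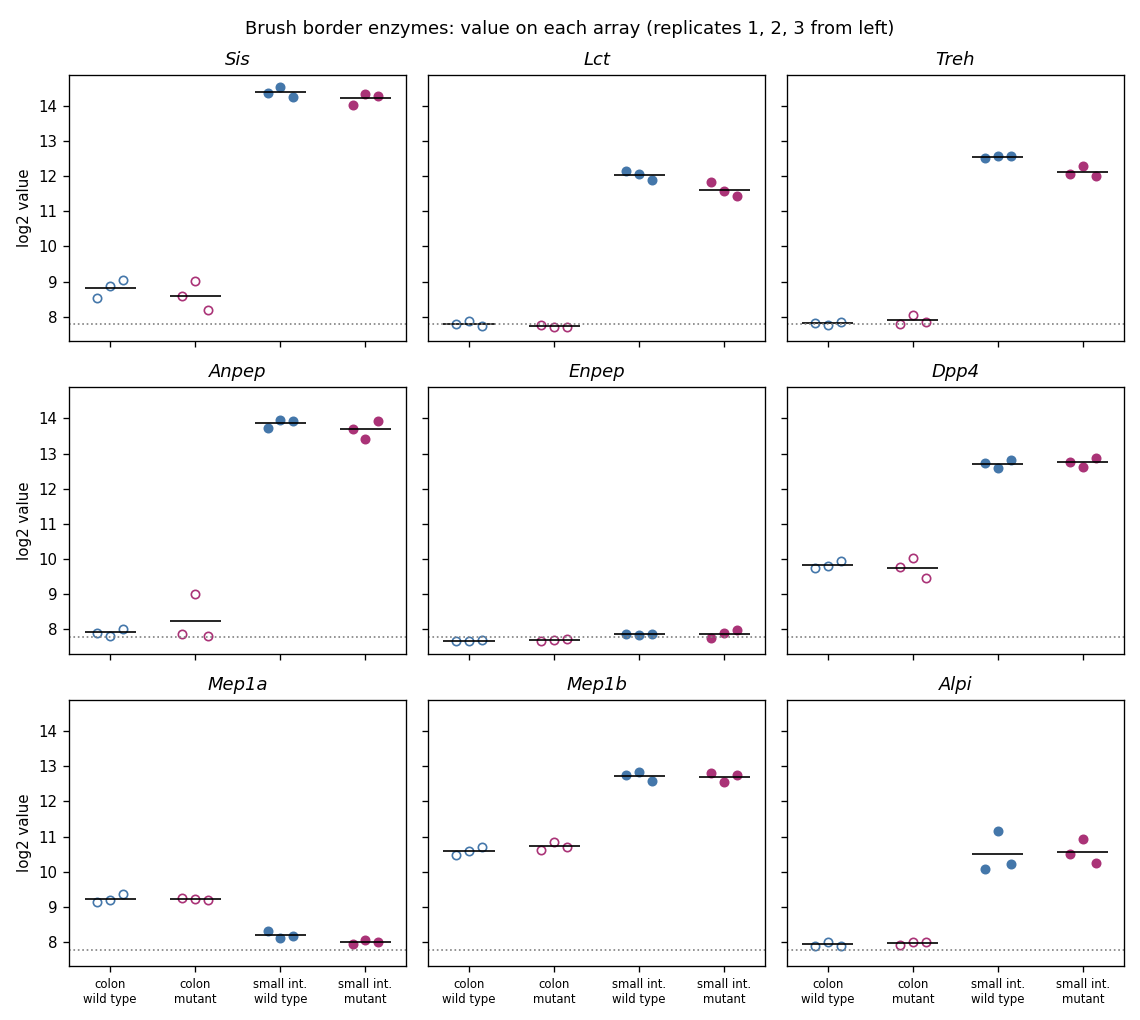
Log2 value of each measured enzyme gene on each of the 12 arrays, by group; open points are colon, filled points small intestine, black lines are means of 3 arrays and the dotted line is the dim-probe limit of 7.78. Mep1a is the 1 member whose small-intestinal arrays lie below its colon arrays, and Enpep stays near the limit throughout.

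Among the disaccharidases, Sis encodes sucrase-isomaltase, which splits sucrose and the branch points left from starch. Its gene lies at chr3:72888557-72967863 (RefSeq annotation of GRCm38.p6, the build of all positions given here). Sis read 14.35, 14.54 and 14.24 (log2) in small-intestinal wild type and 8.54, 8.89 and 9.05 in colon wild type. The mutant arrays read 14.03, 14.33 and 14.29 in small intestine and 8.58, 9.03 and 8.19 in colon. Every small-intestinal value exceeded every colon value, and the colon values were clear of the floor on all 6 arrays. Sis was 46.9-fold higher in small intestine of wild type (log2 difference 5.55 ± 0.20, SE, limma adjusted p = 6.93e-09) and 49.1-fold higher in mutant (5.62 ± 0.20). A second Sis probe was far less responsive. It read 8.33 to 8.66 in small-intestinal wild type and was dim on all colon arrays, which gives a difference of at least 1.67-fold in wild type, so the size of the Sis difference depends on the probe while its direction does not.

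Lct encodes lactase, the milk sugar enzyme, at chr1:128284756-128328318. It read 12.16, 12.05 and 11.89 in small-intestinal wild type against 7.78, 7.87 and 7.73 in colon wild type, where only array 2 was above the limit. The mutant arrays read 11.83, 11.57 and 11.43 in small intestine and 7.75, 7.72 and 7.72 in colon, the last 3 all dim. Lct was higher in small intestine by 4.24 ± 0.10 (SE) in wild type (limma adjusted p = 2.58e-10), a size that rests on the background level, and at least 14.2-fold in mutant (limma adjusted p = 6.17e-10). Treh, at chr9:44673233-44686305, encodes trehalase, which splits the sugar of fungi and insects. It read 12.53, 12.56 and 12.58 in small-intestinal wild type and 7.82, 7.78 and 7.86 in colon wild type. The mutant arrays read 12.07, 12.30 and 12.01 in small intestine and 7.80, 8.04 and 7.86 in colon. Its wild-type arrays in small intestine agreed within an SD of 0.03, the tightest of its 4 groups. Treh was higher in small intestine by 4.74 ± 0.08 in wild type (limma adjusted p = 2.10e-11) and by 4.23 ± 0.08 in mutant, again with colon values close to the limit.

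The peptidases fell into 3 patterns: high in small intestine and near background in colon (Anpep), present in both tissues (Dpp4 and the meprins) and near background in both (Enpep). Anpep, at chr7:79821803-79848210, encodes aminopeptidase N, which removes neutral residues from the amino end of peptides. It read 13.72, 13.96 and 13.94 in small-intestinal wild type against 7.89, 7.83 and 8.02 in colon wild type. The small-intestinal mutant arrays read 13.71, 13.43 and 13.92. In colon mutant the values were 7.87, 9.02 and 7.81, so array 2 stood well above the rest. That array was also the one high in Paneth cell genes, with the Paneth defensin Defa3 at 13.10 against at most 8.59 on the other colon arrays, and its enterocyte markers summed to 12.1 (log2) against at most 11.7. The part of these cells in the Anpep value was not tested. The tissue difference of Anpep was 5.96 ± 0.27 (SE) in wild type (limma adjusted p = 4.41e-08) and 5.46 ± 0.27 in mutant (adjusted p = 1.01e-07), or 5.85 in mutant without colon mutant 2.

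Dpp4, at chr2:62330073-62412315, encodes dipeptidyl peptidase 4, which cuts dipeptides after proline or alanine and inactivates incretin hormones. It read 12.75, 12.59 and 12.81 in small-intestinal wild type and 9.76, 9.81 and 9.94 in colon wild type. The mutant arrays read 12.77, 12.61 and 12.86 in small intestine and 9.77, 10.03 and 9.47 in colon. Dpp4 was thus measured in both tissues and was 7.38-fold higher in small intestine of wild type (limma adjusted p = 3.16e-08) and 7.98-fold in mutant (adjusted p = 2.79e-08). T cells also carry Dpp4, and 4 T cell genes summed to 10.3 to 10.4 (log2) in small intestine and 9.94 to 10.3 in colon. Another Dpp4 probe, matched to a different transcript record, was above the dim limit on 2 arrays and was not kept.

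Meprins are zinc proteases of the astacin family built from alpha and beta subunits, and the genes of these subunits went in opposite directions. Mep1a, the alpha subunit, at chr17:43474324-43504143, read 9.14, 9.19 and 9.37 in colon wild type and 8.30, 8.12 and 8.17 in small-intestinal wild type. The mutant arrays read 9.25, 9.22 and 9.20 in colon and 7.95, 8.06 and 8.0 in small intestine. Every colon value lay above every small-intestinal one, and all 12 arrays were above the dim limit. Mep1a was 2.05-fold lower in small intestine of wild type (log2 difference -1.04 ± 0.06, SE, limma adjusted p = 3.83e-07) and 2.33-fold lower in mutant (-1.22 ± 0.06, adjusted p = 1.33e-07). Mep1b, the beta subunit, on chromosome 18, read 12.75, 12.83 and 12.59 in small-intestinal wild type and 10.48, 10.59 and 10.71 in colon wild type. The mutant arrays read 12.81, 12.56 and 12.74 in small intestine and 10.63, 10.85 and 10.71 in colon. Mep1b was 4.38-fold higher in small intestine of wild type (limma adjusted p = 2.31e-08) and 3.93-fold in mutant. Its other 2 probes gave 3.39-fold and 3.42-fold in wild type, in the same direction.

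Enpep, at chr3:129269177-129332749, encodes aminopeptidase A, which removes acidic residues and cleaves angiotensin II. It read 7.87, 7.84 and 7.87 in small-intestinal wild type, 7.77, 7.91 and 7.97 in small-intestinal mutant, and 7.66 to 7.73 on the colon arrays. The tissues did not overlap, yet every value lay at or near the floor. With colon dim throughout, the difference was at least 1.06-fold in wild type (limma adjusted p = 0.00822). In mutant it was at least 1.07-fold (adjusted p = 0.00962), with 2 of 3 small-intestinal arrays above the limit. Enpep was kept only through small intestine and had to differ, so these p-values are no test of it. Fitted on the mutant arrays alone, Enpep did not pass (limma adjusted p = 0.0564).

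Alpi encodes intestinal alkaline phosphatase, which removes phosphate from nucleotides and from bacterial lipopolysaccharide, at chr1:87098002-87101606. It read 10.08, 11.17 and 10.23 in small-intestinal wild type and 10.51, 10.93 and 10.23 in small-intestinal mutant. Colon read 7.89, 8.0 and 7.90 in wild type and 7.92, 8.0 and 7.99 in mutant, just above the dim limit. Alpi was 5.91-fold higher in small intestine of wild type (log2 difference 2.56 ± 0.25, SE, limma adjusted p = 1.44e-05) and 6.02-fold in mutant (2.59 ± 0.25). With an SD of 0.59 in small-intestinal wild type it had the widest spread of the members in that group. Wild type 2, mutant 2 and mutant 1 were its highest arrays, in that order, and these were also the 3 arrays highest in pancreatic acinar genes. The 14 acinar genes, with Zg16 left out after its high colon values were seen, summed to 16.37, 16.12 and 14.96 (log2) on them and to 12.78 to 13.46 on the remaining 3. Tff2, a Brunner gland gene, read 9.74, 9.64 and 8.60 on the same arrays and 7.7 to 7.97 on the other small-intestinal arrays. The part of these tissues in the Alpi spread was not tested. With all arrays the Alpi genotype difference was 0.07 ± 0.25. Without those 3 arrays it was 0.08, in a fit with mutant 3 alone against 2 wild-type arrays, which gives no measure of spread among mutant arrays.

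**Figure D2:**
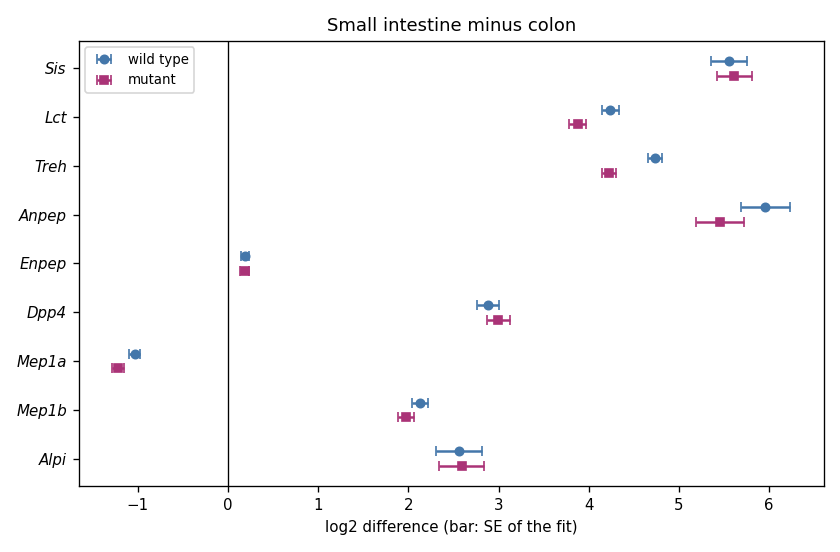
Small intestine minus colon on the log2 scale for each measured enzyme gene, in wild type (circles) and mutant (squares); bars are SE of the fit over 12 arrays. The differences run from -1.04 (Mep1a) to 5.96 (Anpep) in wild type, and the mutant values lie close to them.

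In mutant mice the same comparison gave 8 members higher and 1 lower, each without overlap. Of all features 39.4% differed (limma), 17.3% higher and 22.0% lower, and 21.5% and 27.2% were without overlap in these directions. Ordered by signed log2 difference, Sis, Anpep and Treh led at 4.23 or more. Lct, dim on all colon mutant arrays, has only its bound. Dpp4, Alpi and Mep1b lay between 1.97 and 3.00, Enpep near 0 and Mep1a below it.

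Other genes of the enterocyte surface were read from lists. Of 17 further surface enzymes 12 were measured, and 8 were higher in small intestine of wild type, 2 lower and 2 did not pass, with a median log2 difference of 0.90. Of the 8 higher, 4 (Mme, Tmprss15, Enpp3 and Enpp7) were dim on all colon arrays, so they were kept only through small intestine and had to differ. Ace, the angiotensin-converting enzyme, was higher by 4.64 ± 0.08 (SE), and Mme, neprilysin, by at least 8.22-fold. Dpep1, a dipeptidase, was lower by 0.61 and Nt5e, the AMP-hydrolysing ectonucleotidase, by 0.94 on the log2 scale. Of 14 microvillus genes 9 were higher, 2 lower and 3 did not pass, with a median of 0.30. Pdzk1, a scaffold for apical transporters, was at least 26.4-fold higher and Pls1, an actin bundler, higher by 1.60 ± 0.08. Tmigd1 and Baiap2l1 were lower, the first by at least 1.19-fold and the second by 0.50 on the log2 scale. Vil1, the villin gene whose promoter drives the Cre, was higher by 0.98 ± 0.09, from 11.81 to 11.98 in colon to 12.79 to 13.02 in small intestine.

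Of 12 measured transcription factors of enterocyte or regional identity, 6 were higher and 5 lower in small intestine of wild type. Creb3l3, a factor of lipid handling, was higher by 2.50 ± 0.07 (SE) and Gata6 by 0.69 ± 0.04. Cdx1 and Klf4 were lower, with log2 differences of -1.29 and -1.16. Cdx2, named because a motif of its family was searched, was 12.29, 12.11 and 12.54 in colon and 11.74, 11.65 and 11.75 in small intestine, a difference of -0.60 ± 0.13 (limma adjusted p = 0.00293). Of the 11 enterocyte markers outside the members, 11 were higher, with a median of 3.33 and with Cubn dim on all colon arrays, and of 8 colonocyte markers 8 were lower.

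**Figure D3:**
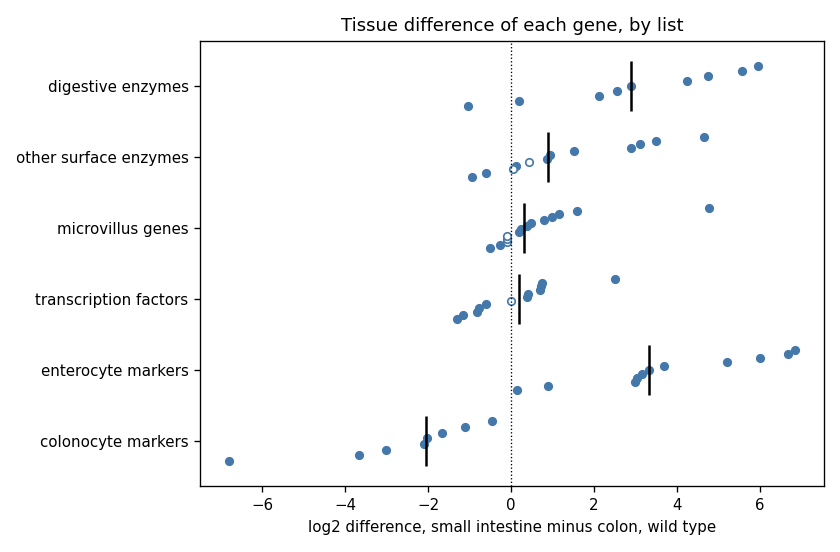
Log2 difference between small intestine and colon of wild type for each measured gene of 6 lists; filled points passed limma's adjusted p of 0.05, open points did not, and black lines are list medians. The digestive enzymes (median 2.88) lie nearer the enterocyte markers (3.33) than the microvillus genes (0.30).

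The promoters of the 3 measured disaccharidase genes and of Mep1a, which went the other way, are shown because CDX, HNF1, GATA and HNF4 factors are known regulators of enterocyte enzymes. Each is the 250 bases before the start in the RefSeq promoter table (GRCm38.p6), written 5′ to 3′ on the gene's strand. Capitals mark matches, on either strand, to any of 5 short motifs. The first CDX core is TTTAT and the second CDX core is TTTAC. The HNF1 half-site is GTTAA. The GATA core is GATAA. The HNF4 half-site is CAAAG. The windows are chr3:72967864-72968113 on the minus strand for Sis, chr1:128328319-128328568 minus for Lct, chr9:44672983-44673232 plus for Treh and chr17:43502774-43503023 minus for Mep1a, whose table start lies inside the annotated gene span.
Sis: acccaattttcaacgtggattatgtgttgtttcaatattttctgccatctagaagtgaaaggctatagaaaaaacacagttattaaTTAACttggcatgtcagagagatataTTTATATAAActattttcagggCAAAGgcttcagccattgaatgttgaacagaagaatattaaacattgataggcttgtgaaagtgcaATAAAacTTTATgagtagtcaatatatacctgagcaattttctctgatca
Lct: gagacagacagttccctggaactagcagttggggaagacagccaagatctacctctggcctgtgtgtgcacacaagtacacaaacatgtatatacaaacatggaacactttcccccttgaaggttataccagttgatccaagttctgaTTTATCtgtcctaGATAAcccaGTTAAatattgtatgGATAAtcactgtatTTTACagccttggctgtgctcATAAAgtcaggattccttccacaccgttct
Treh: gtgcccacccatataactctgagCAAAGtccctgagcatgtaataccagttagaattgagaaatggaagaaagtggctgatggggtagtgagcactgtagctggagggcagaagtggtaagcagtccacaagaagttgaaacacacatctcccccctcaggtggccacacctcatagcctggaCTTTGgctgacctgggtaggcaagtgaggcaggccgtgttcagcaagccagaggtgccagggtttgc
Mep1a: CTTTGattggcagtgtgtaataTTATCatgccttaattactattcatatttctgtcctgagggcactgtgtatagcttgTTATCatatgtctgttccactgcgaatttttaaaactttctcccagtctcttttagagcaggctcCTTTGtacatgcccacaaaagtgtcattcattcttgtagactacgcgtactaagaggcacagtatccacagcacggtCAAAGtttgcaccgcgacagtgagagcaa
In Sis the first CDX core matched 4 times, in opposite orientations at positions -50 to -46 and -43 to -39 and again at -138 to -134 and -133 to -129, counted back from the start. Sis also held the HNF1 half-site 1 time and the HNF4 half-site 1 time, but neither the second CDX core nor the GATA core. Lct held the first CDX core 2 times, the second 1 time, the HNF1 half-site 1 time and the GATA core 3 times, and 1 GATA match overlapped a CDX match. Treh held only the HNF4 half-site, 2 times. Mep1a held the GATA core 2 times and the HNF4 half-site 3 times, but neither CDX core nor the HNF1 half-site. Over the 5 motifs, Anpep, with the largest tissue difference in wild type, held 0 matches. Treh and Alpi held 2 each, Dpp4 4, Mep1a 5, Sis 6, and Lct, Mgam and Enpep 7 each. A link between matches and tissue differences was not tested. Of the 9 members in the promoter table, which has Mgam and not Mep1b, 6 held the first CDX core, 1 the second, 4 the HNF1 half-site, 5 the GATA core and 7 the HNF4 half-site. Among all 32851 promoters of the same length, 37.3% held the first CDX core, 28.3% the second, 21.7% the HNF1 half-site, 22.6% the GATA core and 48.6% the HNF4 half-site. The first CDX core shares letters with many TATA boxes. A match is a description of letters, not a site.

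The second question was whether loss of Cftr changed the enzymes in duodenum. Treh fell in the mutant, and it was the 1 member of 9 to pass, beside 0.675% of all features, 0.169% higher and 0.506% lower (limma adjusted p under 0.05). Its mutant arrays (12.07, 12.30 and 12.01) all lay below the wild-type arrays (12.53, 12.56 and 12.58). Treh was 1.34-fold lower (limma adjusted p = 0.0395), with a 95% interval of the log2 difference from -0.60 to -0.26. The call depended on single arrays. It was lost in 10 of the 12 fits that left out 1 array, with adjusted p-values of 0.131, 0.0827, 0.166, 0.102 and 0.115 without small-intestinal wild type 1, 2 and 3 and mutant 1 and 3, and from 0.0504 to 0.0760 without any single colon array but colon mutant 2. It was also lost with the array number as a block (adjusted p = 0.0556), without a dim limit (0.0674 as adjusted p) and in a fit of the small-intestinal arrays alone (adjusted p = 0.242). The log2 difference itself stayed between -0.54 and -0.37 in all 22 alternatives.

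Lct and Mep1a, with Treh making 3 of 9, were the other members whose mutant and wild-type arrays did not overlap in small intestine, both lower, and neither passed. Of all features 13.5% were without overlap: 6.76% were lower and 6.73% higher. The highest Lct mutant array, 11.83, was just below the lowest wild-type array, 11.89, and Lct differed by -0.42 ± 0.10 (SE, limma adjusted p = 0.117), nearly the size of the Treh difference with a wider spread. Without small-intestinal mutant 1, its highest mutant array, Lct differed by -0.53 (limma adjusted p = 0.0185). Without the 3 arrays high in acinar genes it differed by -0.59 (adjusted p = 0.0362), a fit with mutant 3 alone against 2 wild-type arrays that assumes this array varies like the other groups. In that fit Treh differed by -0.54 (adjusted p = 0.0298), and 319 of all features passed, against 108 with all arrays. Mep1a differed by -0.19 ± 0.06 (limma adjusted p = 0.336).

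**Figure D4:**
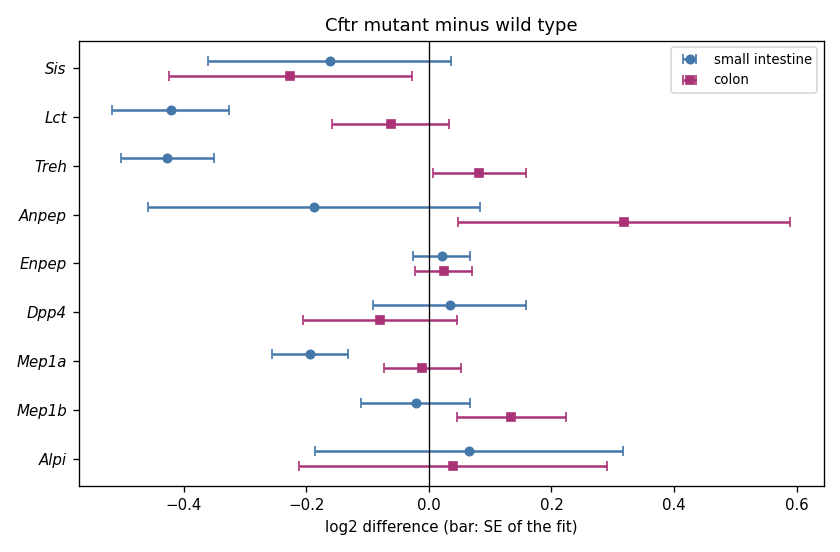
Cftr mutant minus wild type on the log2 scale for each measured enzyme gene, in small intestine (circles) and colon (squares); bars are SE of the fit over 12 arrays. Treh (-0.43), Lct (-0.42) and Mep1a (-0.19) lie below 0 in small intestine, and no colon value passed the test.

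The other 6 members overlapped between genotypes in small intestine. Sis differed by -0.16, with a 95% interval from -0.60 to 0.28, and Anpep by -0.19, from -0.79 to 0.42. For Dpp4 the interval of the log2 difference was -0.24 to 0.31, for Mep1b -0.22 to 0.18, for Enpep -0.08 to 0.12 and for Alpi -0.49 to 0.62. These intervals leave room for changes of the size seen in Treh for Sis, Anpep and Alpi, and they do not show that the genotypes were alike. The median over the 9 members was -0.16, against 0.00 over all features.

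**Figure D5:**
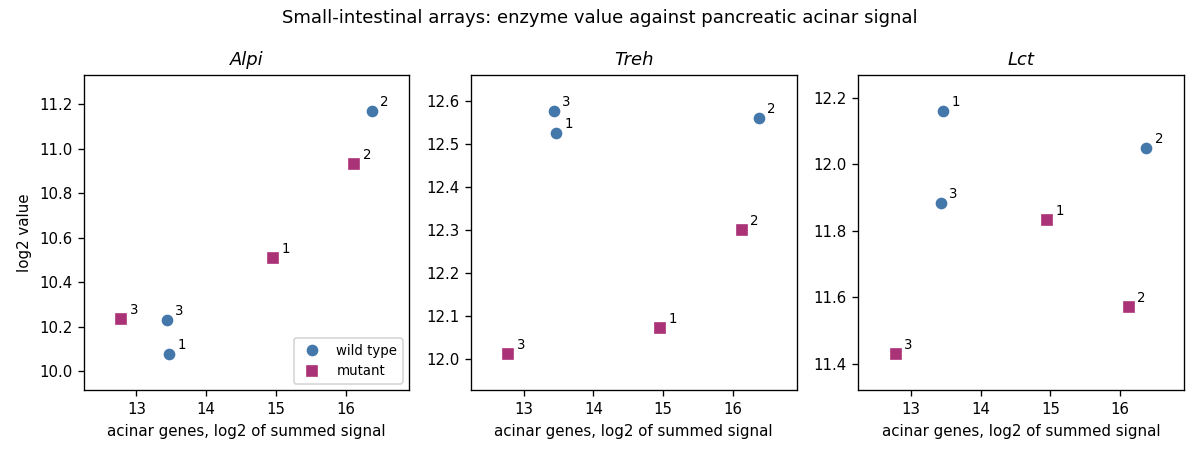
Log2 value of Alpi, Treh and Lct on the 6 small-intestinal arrays against the log2 summed signal of 14 pancreatic acinar genes on the same array; circles are wild type, squares mutant, and numbers are replicates. Alpi is highest on the 3 arrays with acinar sums of 14.96 or more. For Treh and Lct all mutant arrays lie below all wild-type arrays, with only 1 wild-type array at the high sums and 1 mutant array at the low ones.

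In the other lists 1 gene passed in small intestine. None of the 12 other surface enzymes, 14 microvillus genes or 12 transcription factors passed (limma), and at an unadjusted p under 0.05 there were 4, 1 and 3. Their smallest adjusted p-values were 0.351 for Nt5e, 0.120 for Pdzk1, which differed by -0.65 ± 0.15 (SE), and 0.224 for Elf3. At the unadjusted threshold, 3 of 9 members had p under 0.05, beside 8.14% of all features. Of the 11 enterocyte markers, Cubn, the vitamin B12 receptor gene, fell by at least 1.05-fold (limma adjusted p = 0.0487), from 7.84 to 7.87 in wild type to dim on all mutant arrays. Cubn was above the dim limit on no other arrays, so it was kept only through the wild-type group and had to differ. Of the 11 enterocyte markers 4 were higher in mutant and 7 lower, with a median of -0.03, and 3 had an unadjusted p under 0.05. Apoa4, Rbp2 and Mttp differed by -0.04, -0.03 and -0.14. Apoc3 read 13.57 to 13.84 in wild type and 12.94 to 13.46 in mutant, without overlap. Ada went the other way, from 10.82 to 11.11 in wild type to 10.93 to 11.85 in mutant, with overlap. Of the other cell types, smooth muscle genes summed to 14.3 (log2) on each wild-type array and 14.2 to 14.4 on the mutant arrays, and endothelial genes to 10.6 to 10.8 and 10.7. Goblet cell genes summed to 15.1 to 15.2 in wild type and 15.4 to 15.6 in mutant, without overlap. The Paneth cell defensin Defa23 read 12.01 to 12.77 in wild type and 11.19 to 11.71 in mutant, also without overlap (limma adjusted p = 0.0753). Lyz1 (14.515 to 14.651 and 14.704 to 14.800) and Defa3 (14.22 to 14.33 and 14.41 to 14.51) were higher in mutant without overlap. All of these were named after their values were seen. Of the 7 Paneth cell genes 5 were higher in mutant and 2 lower, and 0 passed. Their sum was 16.4 to 16.5 in wild type and 16.4 to 16.6 in mutant. Erythrocyte genes summed to 11.1 to 13.0 in wild type and 11.3 to 11.9 in mutant. Their part in the Treh and Lct values was not tested.

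In colon 0 of 9 members passed, beside 0% of all features (limma), and at an unadjusted p under 0.05 it was 0 of 9 beside 5.11%. The genotypes overlapped for all 9 members, while 8.85% of all features were without overlap. The largest difference was that of Anpep, 0.32 ± 0.27 (SE), which rested on colon mutant 2 and was -0.08 without it. Mep1b, the member with the smallest p, differed by 0.13 ± 0.09 (limma adjusted p = 0.944). Mep1a, the member higher in colon than in small intestine, differed by -0.01, with a 95% interval from -0.15 to 0.13.

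Whether the genotype effect differed between tissues was then tested as the difference of both contrasts, which share no arrays. No member passed, nor did any of the 15996 features (limma, 0%), while 5.90% of features and 2 of 9 members had an unadjusted p under 0.05. For Treh the small-intestinal effect was lower than the colon effect by -0.51 ± 0.11 (SE, limma adjusted p = 0.278) and for Lct by -0.36 ± 0.14 (adjusted p = 0.771). Without the 3 arrays high in acinar genes the Treh value was -0.62, in a fit with small-intestinal mutant 3 alone against 2 wild-type arrays. The remaining members lay between -0.51, for Anpep with an SE of 0.38, and 0.11.

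The mean of the 9 members was 8.52 to 8.84 (log2) on the colon arrays, 11.59 to 11.74 in small-intestinal wild type and 11.49 to 11.52 in small-intestinal mutant. The genes whose values followed this mean most closely over all 12 arrays were Pdlim3, Slc25a45, Rbp2, Faah and Apoa4, with Pearson correlations of 0.998 to 0.999. Over the 6 small-intestinal arrays they were Phex, Acp6, Fbp1, Adam23 and Ephx2, at 0.982 to 0.996. These correlations are descriptions from a search of 12183 genes. The first are over arrays of both tissues, which these genes separate, and the second over 6 arrays of 1 tissue.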

How the data were processed

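RNA from distal colon epithelium and villus-depleted mid-duodenum was hybridised to 12 arrays. The authors deposited log2 values, which look quantile normalized since all 12 columns share nearly the same distribution (43.2% to 43.3% of probes above the dim limit). The submitters' processing notes name limma, and how background was treated is not stated in any source at hand. A further table, not normalized, has 24 columns whose names fit no sample's labels, and it was left out.

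The dim limit, 7.78, is the mode of all values plus 3 SD of the values below it. Probes above it on at least 3 arrays were kept (22873 of 45281) and the probe with the highest mean stood for its gene, giving 15996 features. The model (limma 3.58.1, R 4.3.3) had a mean per group, 8 residual degrees of freedom and a prior of 2.15. P-values are two-sided, with Benjamini-Hochberg adjustment within a contrast and a threshold of 0.05. With 3 arrays a side, 0.1 is the lowest p an exact permutation could reach. "At least" folds set each dim array at the limit or its own value, whichever is higher. The number of arrays limits the precision.

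The members and lists were chosen with earlier results of these data known. All members are named. From the lists of other surface enzymes, microvillus genes and transcription factors, the genes with the 2 smallest p-values per direction that passed in the wild-type tissue contrast are named. From the remaining lists only some such genes are named. Others were named after their values were seen. Same-numbered arrays did not deviate together in every pair (correlations from -0.04 to 0.16 between tissues and from -0.21 to 0.37 between genotypes), so the numbers were not taken as pairs. Alternatives covered the dim limit, the probe, the prior, weights, blocks, left-out arrays and scaling.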

Additional observations from a re-analysis of the deposited data

How the results depend on the processing

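In both tissue contrasts all 9 members kept their direction in every alternative. They passed in each, except Enpep in mutant when only the groups compared were fitted. Enpep was kept only through small intestine and had to differ, so its passing is no test of it. Averaging the probes of a gene lowered the Sis tissue difference in wild type from 5.55 to 3.19. The genotype contrast in small intestine was less stable: 1 member passed, but 0 without a dim limit, 0 with only the groups compared, 0 with the replicate block by array number and 2 without the 3 arrays high in acinar genes, and from 0 to 1 with single arrays left out. Neither replicate block changed any other call. The features passing there numbered 108, but 179 with array weights, 57 with the replicate block, 3 with only the groups compared, 319 without the acinar-high arrays and 0 to 149 with single arrays left out. The difference between both contrasts passed for 0 members, and for 1 without the acinar-high arrays. Over all features it passed for 0, for 213 without those arrays and for up to 36 with single arrays left out (small-intestinal wild type 2). In colon 0 members passed in every alternative. Over all features 0 passed there with all arrays and up to 31 with single arrays left out (colon mutant 1).

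Values that changed sign all had adjusted p-values of at least 0.920 in limma. With array weights Dpp4 and Mep1b in small intestine became -0.0098 and 0.0163, Mep1a in colon 0.0146 and the Enpep difference of contrasts 0.009. Without the acinar-high arrays Anpep and Mep1b in small intestine became 0.0883 and 0.068 and the Enpep difference of contrasts 0.0728. With an equal median that Enpep value was 0.0018, and with averaged probes Mep1b in small intestine was 0.0457. With single arrays left out, the small-intestinal genotype difference ran from -0.14 to 0.40 for Alpi, -0.0226 to 0.0784 for Enpep, -0.0283 to 0.10 for Dpp4 and -0.0893 to 0.0491 for Mep1b. The colon one ran from -0.0766 to 0.53 for Anpep, -0.22 to 0.0637 for Dpp4 and -0.0578 to 0.0563 for Mep1a. The difference of contrasts ran from -0.14 to 0.28 for Sis, -0.18 to 0.36 for Alpi, -0.0471 to 0.0538 for Enpep and -0.0299 to 0.25 for Dpp4. The causes were not tested. Signal near the floor limits Enpep everywhere and Lct, Treh, Anpep and Alpi in colon.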

Other observations

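Akp3, the mouse alkaline phosphatase gene named for the duodenum, was chosen after its values were seen. It read 7.92, 8.75 and 7.87 (log2) in small-intestinal wild type and 8.87, 8.41 and 7.95 in mutant, so the same 3 arrays were high as for Alpi, although their order differed. On colon arrays it read 7.7 to 7.78. Its genotype difference in small intestine was 0.23 ± 0.25 (SE). Tmprss15, the enterokinase that activates trypsinogen, read 10.28, 11.19 and 10.37 in small-intestinal wild type and 11.50, 10.44 and 10.77 in mutant. It was dim on all colon arrays, which gives at least 7.12-fold more in small intestine of wild type. Tmprss15 was thus kept only through small intestine and had to differ. Its highest arrays were mutant 1 and wild type 2, both high in acinar genes, whereas mutant 2, also high in them, lay among the rest.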
